A study of Mus musculus with 7 samples.

Results

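The Zfp genes, whose symbol is Zfp followed by a number, code for proteins with zinc fingers, short folds in which 2 cysteines and 2 histidines hold a zinc ion. The genes described here are the protein-coding rows with such a symbol on the autosomes other than 7, 13 and 17. They number 191 of the 26019 gene rows in the table and lie on 16 chromosomes. They were selected on symbol, gene type and chromosome, and the set itself was chosen by the KO against WT differences of such genes seen in these same libraries. Counts of calls are therefore a description of the set and no test of it. The RNA came from growing oocytes of secondary follicles, whose granulosa cells form several layers around the oocyte. The KO group held 3 libraries and the WT group 4, each made from 5 oocytes of C57BL/6J mice. The series title and design text name a homozygous loss of Mfn2, a gene for a mitochondrial fusion protein, while the genotype label and the collection protocol name Mfn1-/-. Both groups were aged 8 weeks by the protocol and P1 by the age label, and 3 mice per group are given in the design text. No source used here names a promoter or Cre that drives the deletion, or ties a library to a mouse. If the 3 mice per group hold, some of the 4 WT libraries share a mouse. The p-values thus cover the spread between libraries, which may be technical. Mfn2 had 7.27, 4.55 and 7.66 normalised counts in KO, against 35.3, 35.1, 15.0 and 29.2 in WT (log2 fold change -1.94, SE 0.40, limma adjusted p = 0.00571). Mfn1 overlapped between the groups (limma adjusted p = 0.499).

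Zinc fingers of this kind usually stand in arrays that read DNA, each finger contacting a few neighbouring bases. Many Zfp proteins also carry a KRAB domain, which binds the corepressor TRIM28 and through it the H3K9 methyltransferase SETDB1. Proteins of this class silence retroelements and, in oocytes and early embryos, take part in guarding imprinted regions. Mouse KRAB zinc finger genes multiplied by local duplication, and near-identical copies often lie side by side. Sequence reads can then be shared between copies, which limits how well each copy can be measured.

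The repeated unit that codes for 1 finger is given here for 8 of the genes called higher in KO, because it shows both what the family shares and how close some copies are. Each line is the first stretch of 84 bases in the coding sequence that starts with a canonical linker and goes on with a complete finger, 5′ to 3′ on the coding strand (GENCODE M21, GRCm38). The first 15 bases, in capitals, code for the linker between fingers, and the other 69 bases code for the finger. Such a unit was found in 128 of the 191 genes, with 70 different spellings of the linker at the DNA level.
Zfp973 (chr2:176680350-176680433, plus strand): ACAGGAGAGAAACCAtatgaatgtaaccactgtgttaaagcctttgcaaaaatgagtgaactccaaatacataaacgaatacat
Zfp966 (chr2:175921217-175921300, minus strand): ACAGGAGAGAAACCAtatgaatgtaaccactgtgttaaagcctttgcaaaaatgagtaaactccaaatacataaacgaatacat
Zfp970 (chr2:177475010-177475093, plus strand): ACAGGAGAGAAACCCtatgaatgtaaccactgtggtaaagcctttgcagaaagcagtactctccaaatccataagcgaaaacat
Zfp600 (chr4:146195583-146195666, plus strand): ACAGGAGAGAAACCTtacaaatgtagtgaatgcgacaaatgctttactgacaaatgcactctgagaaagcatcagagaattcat
Zfp991 (chr4:147178954-147179037, plus strand): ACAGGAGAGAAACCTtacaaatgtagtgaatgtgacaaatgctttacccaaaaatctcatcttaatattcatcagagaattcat
Zfp386 (chr12:116059867-116059950, plus strand): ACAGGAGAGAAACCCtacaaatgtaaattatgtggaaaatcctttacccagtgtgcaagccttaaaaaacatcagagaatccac
Zfp62 (chr11:49215606-49215689, plus strand): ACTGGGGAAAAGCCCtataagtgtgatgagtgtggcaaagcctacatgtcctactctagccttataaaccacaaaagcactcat
Zfp950 (chr19:61120269-61120352, minus strand): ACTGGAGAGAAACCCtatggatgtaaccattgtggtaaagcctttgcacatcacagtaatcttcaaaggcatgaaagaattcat
Zfp973 and Zfp966, both on chromosome 2, were identical at 83 of 84 bases. Zfp600 and Zfp991, both on chromosome 4, were identical at 71. Zfp973 and Zfp62 were identical at 45, the lowest of the 28 pairs, and the median over the pairs was 56. Linkers were more alike than fingers in that last pair, with 10 of 15 and 35 of 69 bases identical. The search itself favours this, since it fixed every amino acid of the linker but only the cysteines and histidines of the finger.

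Each value is a gene's count over its library's size factor, here called a normalised count. Whole reads could be recovered from them, between 6676076 and 8343915 per library. Oocyte markers, 12 genes, summed to 212658 to 332804 normalised counts in KO and 185680 to 246383 in WT, far above those of granulosa cells (567 to 947 in KO and 525 to 591 in WT, described further on), theca and stroma (31.7 to 40.0 in KO and 14.3 to 35.1 in WT), immune cells (14.2 to 27.3 in KO and 16.0 to 28.04 in WT) and blood and endothelium (128 to 184 in KO and 132 to 193 in WT). The sums for the other cell types covered 16 granulosa, 5 theca and stroma, 5 immune and 2 blood and endothelium genes. The last sum was Pecam1 alone in every library but WT 2, where Hba-a2 added 2.13. Members with at least 1 read numbered 178, 184 and 177 in the KO libraries and 175 to 180 in the WT libraries. The set took 0.671%, 0.580% and 0.698% of all normalised counts in KO 1 to 3, against 0.572%, 0.582%, 0.608% and 0.532% in WT 1 to 4. The groups overlapped, since KO 2 lay below WT 2 and WT 3. A gene was tested where its value reached 1 in at least 3 of the 7 libraries. By that filter 179 members were tested and 12 were not. The 12 had no value above 5.47, and 0 of them were at 0 in every library. Every tested member reached 1 in at least 1 WT library, and 160 reached 1 in all 7. Members that reached 1 in fewer than 3 WT libraries could still pass through their KO libraries, as Zfp872 did.

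In KO oocytes 27 of the 179 tested members were called higher and 0 lower (limma on log2(value + 1), adjusted p under 0.05 over all 19227 tested genes). That is 15.1% of tested members called higher, beside 3.09% of all tested genes. Among all tested genes 3.63% were called lower. At an unadjusted p under 0.05, 48 members were higher (26.8%, beside 10.6% of all tested genes) and 5 lower (2.79%, beside 11.2%). DESeq2 on the recovered reads called 30 members higher and 1 lower (3.8% and 3.87% of all tested genes), and edgeR called 29 higher and 0 lower (3.58% and 3.36%). The log2 fold change was positive in 130 members and negative in 49. Its median was 0.28 over the members, with quartiles at -0.02 and 0.65, and -0.01 over all tested genes. Every KO library lay above every WT library in 43 members (9.37% of all tested genes) and below in 3 (9.83%). Of the 27 called members, 26 had such a separation, and Zfp433 did not. Their log2 fold changes ran from 0.41 to 2.68. The calls were spread over the range of levels. Among members averaging under 10 normalised counts, 1 of 27 was called higher (1.07% of all tested genes at that level). From 10 to under 100 it was 11 of 75 (3.16%). From 100 to under 500 it was 11 of 50 (5.13%), and from 500 up 4 of 27 (3.88%). The 1 call under 10 was Zfp872, which passed the filter through its KO libraries.

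**Figure D1:**
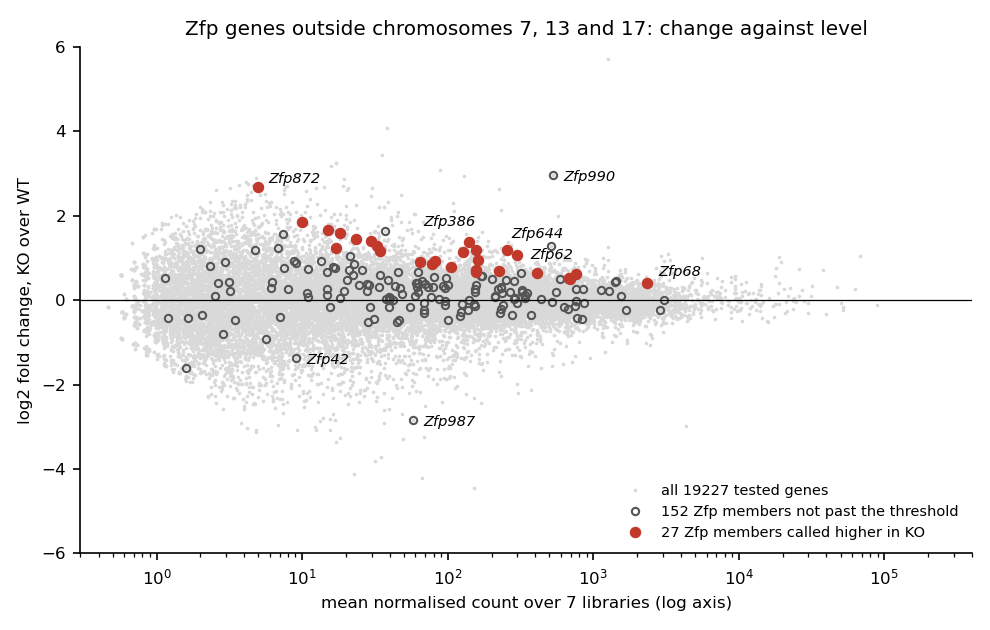
The log2 fold change of KO over WT (vertical axis) is plotted against the mean normalised count over 7 libraries (horizontal log axis), for all 19227 tested genes in grey, 152 uncalled Zfp members as open circles and the 27 called ones in red. The called members lie from Zfp872 (mean 4.94), which passed the filter through its KO libraries, to Zfp68 (mean 2357), and all lie above 0.

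The calls did not hold in every choice of libraries. Members called higher numbered 25 without KO 1, 11 without KO 2 and 11 without KO 3. Of all 19227 tested genes, 822, 228 and 299 were called higher in these fits, against 594 with every library. Members called higher numbered 15 without WT 1, 13 without WT 2, 16 without WT 3 and 18 without WT 4. All genes called higher there numbered 348, 321, 279 and 437. The counts thus fell among all genes as well in each of these fits but that without KO 1. The member totals include members outside the 27 in the fits without KO 1, KO 2, KO 3 or WT 4. Of the 27, 22 stayed called without KO 1, 10 without KO 2 and 10 without KO 3. Without WT 1 to WT 4 in turn, 15, 13, 16 and 16 stayed called. With KO 2 and KO 3 both left out, 0 members were called, beside 0.0416% of all genes called higher and 0.635% lower. At an unadjusted p under 0.05, 28 members were higher there (15.6%, beside 3.85% of all tested genes). Many granulosa cell markers, but not all, were higher in KO 2 and KO 3. The mean log2 level of 16 granulosa markers was 3.35, 4.39 and 4.29 in KO 1 to 3, against 3.34, 2.28, 2.94 and 2.59 in WT 1 to 4. None of the markers was at 0 in all libraries. Of the 16, 10 lay above all WT libraries in both KO 2 and KO 3. Of the 14 that were tested, 0 were called higher and 1 lower. That was Cyp19a1, the aromatase gene, with 98.1, 50.001 and 86.4 normalised counts in KO, against 151, 218, 171 and 178 in WT (log2 fold change -1.23, limma adjusted p = 0.00251). Inhba and Gata4 also had negative log2 fold changes, without passing the test. With that marker mean as a covariate 0 members were called, beside 0.0% of all genes called higher and 0.0156% lower, and 19 members were higher at an unadjusted p under 0.05 (10.6%, beside 2.78% of all tested genes). Over all 179 tested members, called or not, the median log2 difference from the WT mean was 0.28 in KO 1, 0.18 in KO 2 and 0.42 in KO 3. Set against the other WT libraries, it was -0.0096 in WT 1, 0.075 in WT 2, 0.11 in WT 3 and -0.076 in WT 4. The part of granulosa RNA in these results was not tested further. In pooled libraries fewer cells of a type and less RNA per cell cannot be told apart.

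**Figure D2:**
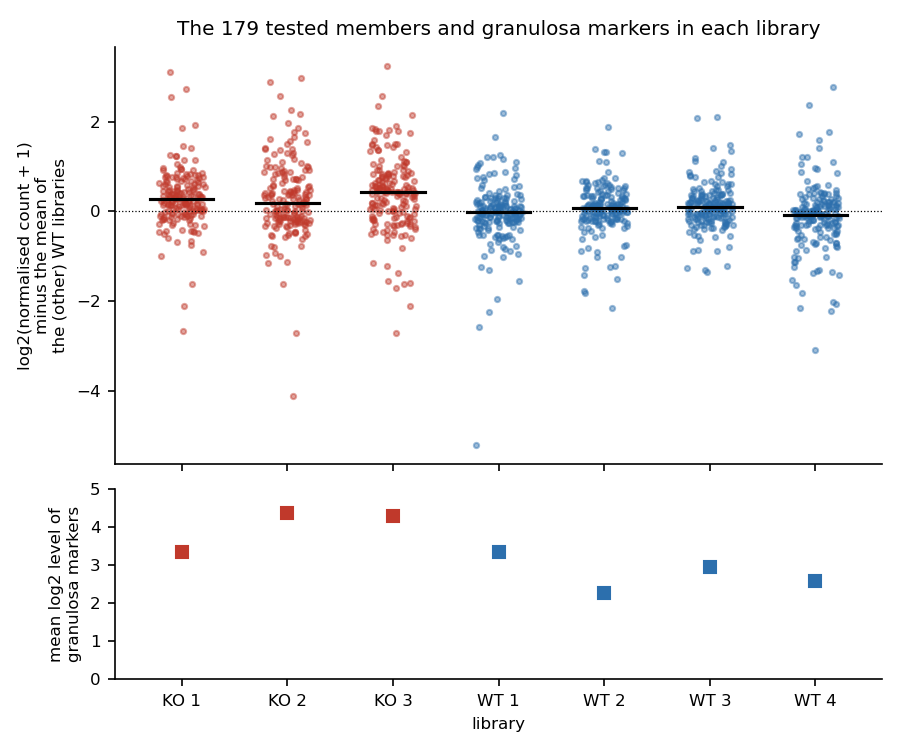
Upper panel: for each library (horizontal axis), each point is 1 of the 179 tested members, as log2(normalised count + 1) minus the mean of the WT libraries (for a WT library, of the other WT libraries), with the median as a bar. Lower panel: the mean log2 level of the granulosa markers. The medians are 0.28, 0.18 and 0.42 in KO 1 to 3 and between -0.076 and 0.11 in WT, while the marker mean is 3.35, 4.39 and 4.29 in KO 1 to 3 and 2.28 to 3.34 in WT.

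Of the 27 calls, 7 held whichever library was left out, in Zfp644, Zfp386, Zfp62, Zfp950, Zfp600, Zfp617 and Zfp872. Zfp62 and Zfp950 were picked out for this after their values were seen. Zfp872 passed the filter through its KO libraries. In a fit without the intensity trend described under processing, Zfp644 alone of the 27 stayed called. Zfp644 (ENSMUSG00000049606.16, chromosome 5, 106616739 to 106697287, minus strand), a partner of the H3K9 methyltransferases G9a and GLP, had 317, 398 and 421 normalised counts in KO. It had 165, 171, 150.5 and 173 in WT. The lowest KO library was thus well above the highest WT library (log2 fold change 1.19, SE 0.17), with the smallest limma adjusted p of the members, 0.000415. Zfp386 (ENSMUSG00000042063.11, chromosome 12, 116047724 to 116063360, plus strand), which codes for 9 fingers and a KRAB-like stretch, had 163, 260.0 and 229 in KO, against 71.5, 109.7, 94.4 and 60.7 in WT. KO 1 was the lowest of the KO libraries and still lay above all WT libraries (1.37, SE 0.23, limma adjusted p = 0.00113). Next, Zfp62 (chromosome 11), with 25 fingers and no KRAB-like stretch, had 355, 372 and 574 in KO, against 207, 181, 224 and 194 in WT. KO 3 stood above the other KO libraries (1.07, SE 0.18, limma adjusted p = 0.00118). Zfp950 (chromosome 19), a KRAB-like gene with 17 fingers, had 136, 205 and 224 in KO, against 77.2, 80.9, 78.5 and 95.3 in WT (1.15, SE 0.21, limma adjusted p = 0.00236). It overlaps Grk5, and the libraries carry no strand, so part of its reads could belong to that gene. Per kilobase of exon, a scale on which genes can be compared, Zfp62 was the highest of these 4 in KO, at 71.6 normalised counts, against 33.3 in WT. Zfp644 followed with 27.1 in KO and 11.8 in WT, then Zfp386 with 24.8 and 9.60, then Zfp950 with 17.7 and 7.82.

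Zfp872 (chromosome 9), a KRAB-like gene, had the largest fold change at a low level. It had 13.6, 9.09 and 7.66 normalised counts in KO, against 0, 0, 0.935 and 3.25 in WT (log2 fold change 2.68, SE 0.61, limma adjusted p = 0.0117). Both WT 1 and WT 2 were without a read. Of the WT libraries only WT 4 reached 1, so the gene passed the filter through its KO libraries. Zfp600 (chromosome 4) had 218, 183 and 296 in KO, against 115, 104, 121 and 65.0 in WT (1.1998, SE 0.23, limma adjusted p = 0.00318). Other genes share 74.5% of its 75-base stretches, Rex2 most of all, so its counts are uncertain. Zfp617 (chromosome 8) had 209.9, 205 and 255 in KO, against 128, 132, 103 and 99.6 in WT (0.95, SE 0.19, limma adjusted p = 0.00398). It shares 36.5% of its stretches and overlaps Zfp882, so it is uncertain in the same way.

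**Figure D3:**
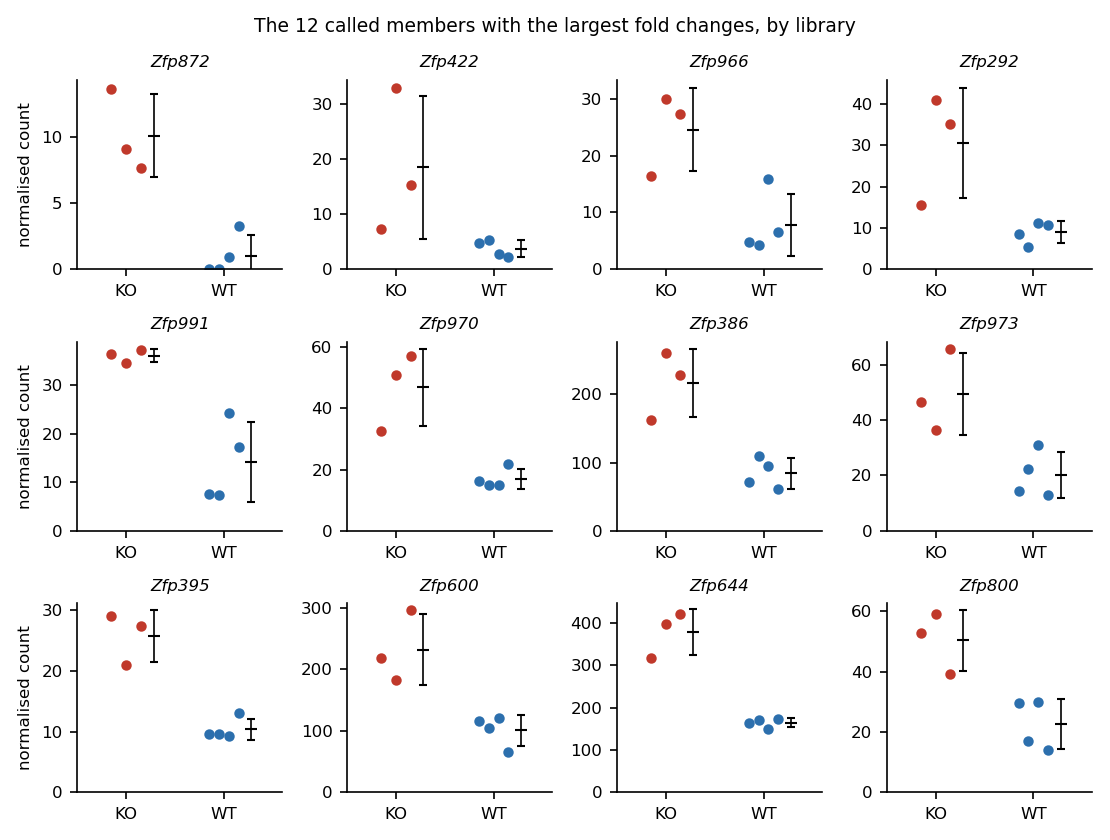
Normalised counts (vertical axes, from 0) of the 12 called members with the largest fold changes, 1 panel per gene, with 3 KO libraries in red to the left of 4 WT libraries in blue, and the mean and SD of each group beside them. In every panel the lowest KO library lies above the highest WT library, as for Zfp644, where 317 in KO 1 stands against 173 in WT 4.

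The other called genes lost their call without some library. Among those with larger fold changes, Zfp970 (chromosome 2) had 32.7, 50.9 and 56.9 normalised counts in KO, against 16.2, 14.9, 15.0 and 21.7 in WT (log2 fold change 1.39, limma adjusted p = 0.0116), and was lost without KO 2 or KO 3 (limma adjusted p up to 0.0594). Zfp422, which codes for Krox-26, a protein first studied in the growing tooth, had 7.27, 32.7 and 15.3 in KO, against 4.77, 5.33, 2.80 and 2.17 in WT. KO 2 was far above KO 1 there, and the call (1.86, limma adjusted p = 0.0378) was lost without KO 2, KO 3, WT 1, WT 3 or WT 4 (limma adjusted p up to 0.232). Zfp292 (chromosome 4), the longest coding sequence among the called members at 2698 codons, had 15.4, 40.9 and 35.0 in KO, against 8.58, 5.33, 11.2 and 10.8 in WT. Its log2 fold change was 1.59 (limma adjusted p = 0.0256), lost without KO 2, KO 3 or WT 2 (up to 0.133). Zfp966 had 16.4, 30.0 and 27.3 in KO, against 4.77, 4.26, 15.9 and 6.499 in WT, so that KO 1 lay barely above WT 3 (1.66, limma adjusted p = 0.0322, lost without KO 2, KO 3, WT 1, WT 2 or WT 4, up to 0.126). Zfp973 had 46.3, 36.4 and 65.6 in KO, against 14.3, 22.4, 30.8 and 12.998 in WT (1.30, limma adjusted p = 0.0269, lost without KO 3, WT 1 or WT 4, up to 0.121). Other genes share 85.1% of the stretches of Zfp966 and 76.0% of those of Zfp973, so these near-identical copies cannot be counted apart with confidence.

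Of the rest, Zfp991 had 36.3, 34.5 and 37.2 normalised counts in KO, against 7.63, 7.46, 24.3 and 17.3 in WT. The KO libraries were tight and the WT libraries were not (log2 fold change 1.45, limma adjusted p = 0.0315, lost without KO 1, KO 2, KO 3, WT 1 or WT 2, up to 0.0875), and 75.9% of its stretches occur in other genes. Zfp395, which codes for 1 finger motif, had 29.1, 20.9 and 27.3 in KO, against 9.53, 9.59, 9.35 and 12.998 in WT (1.23, limma adjusted p = 0.0437). Its call was lost without any 1 of the 7 libraries (up to 0.115). Zfp800 had 52.7, 59.1 and 39.4 in KO, against 29.6, 17.04, 29.9 and 14.1 in WT (1.17, limma adjusted p = 0.0339, lost without KO 1, KO 2, WT 2 or WT 4, up to 0.129). Zfp930 (chromosome 8) was among the abundant ones, with 776, 1013 and 1098 in KO, against 648, 528, 628 and 673 in WT (0.63, limma adjusted p = 0.0151, lost without KO 2, KO 3 or WT 2, up to 0.0599).

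Another 4 called genes, outside the neighbourhoods described further on, had smaller fold changes and are given to complete the list. Zfp248 on chromosome 6 had 113, 116 and 103 normalised counts in KO, against 82.9, 61.8, 43.0 and 48.7 in WT (log2 fold change 0.94, limma adjusted p = 0.0235, lost without KO 2, WT 3 or WT 4, up to 0.0814). Zfp637, also on chromosome 6, had 74.5, 92.7 and 95.2 in KO, against 62.0, 46.9, 29.0 and 53.1 in WT (0.90, limma adjusted p = 0.0425, lost without KO 2, KO 3, WT 2, WT 3 or WT 4, up to 0.137). Zfp438 on chromosome 18 had 192, 203 and 197 in KO, against 109, 136, 100.01 and 162 in WT, and the KO libraries were much closer to each other than the WT libraries. Its log2 fold change was 0.66 (limma adjusted p = 0.0462, lost without any 1 library other than WT 4, up to 0.146). Zfp639, at 32510259 to 32520833 on chromosome 3 and thus close to Mfn1, which starts at 32529465, had 665, 810.02 and 1025 in KO, against 601, 627, 547 and 543 in WT (0.50, limma adjusted p = 0.0487, lost without any 1 library other than KO 1, up to 0.186).

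The 6 members with the highest mean normalised count were Zfp655, Zfp706, Zfp68, Zfp277, Zfp345 and Zfp958. Of these Zfp68 was called. It had 2497, 2780.1 and 2983 in KO, against 2057, 2051, 2108 and 2023 in WT (log2 fold change 0.41, SE 0.12, limma adjusted p = 0.0384). WT libraries lay within a narrow band, and the call was lost without KO 2, KO 3 or any 1 WT library (limma adjusted p up to 0.109). Zfp958, with 1441, 1583 and 2106 in KO and 1446, 1146, 1169 and 1194 in WT, was not called (0.45, limma adjusted p = 0.0625) but was without KO 1 (0.0254). Zfp655 overlapped, with 3340.4, 2646 and 3225 in KO and 3034, 3104, 3088 and 2918 in WT. Zfp706 had 2679, 2763 and 2459 in KO, all below the 2852 to 3308 of WT, without passing the test (-0.23, limma adjusted p = 0.266). Zfp277 had 1497, 1434 and 1685 in KO, also below the 1723 to 1923 of WT (-0.23, limma adjusted p = 0.287). Zfp236 on chromosome 18, which codes for 30 finger motifs, was the third member with KO below WT, at 84.5, 77.3 and 86.4 in KO and 101 to 124 in WT (-0.46, limma adjusted p = 0.175). Per kilobase of exon Zfp958 had the highest mean level of all members, 609 normalised counts, followed by Zfp706 with 580.4 and Zfp345 with 563. The median over the members was 11.9.

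Of 22 members with a well-known function, 21 were tested and 1 was called higher (4.76%, beside 3.09% of all tested genes). Of 3 retroelement and imprint regulators, Zfp809, which directs TRIM28 to integrated retroviruses, had 72.7, 140.0 and 85.3 normalised counts in KO, against 54.3, 92.7, 64.5 and 56.3 in WT (log2 fold change 0.54, limma adjusted p = 0.225). Zfp445, which binds imprinting control regions, had 92.7, 68.2 and 88.6 in KO, against 70.5, 61.8, 63.6 and 67.2 in WT (0.32, limma adjusted p = 0.422). Zfp932, a repressor of endogenous retroviruses, had 617, 906 and 1049 in KO, against 652, 729, 674 and 737 in WT (0.26, limma adjusted p = 0.354, and called higher without KO 1 at 0.0464). All 3 had positive log2 fold changes and overlapping groups. Among 4 partners of chromatin enzymes, Zfp644 was called, and Zfp335 and Zfp687 were not (limma adjusted p = 0.568 and 0.998). Zfp462, which binds the G9a/GLP complex, was not tested, with 0, 0.909 and 5.47 in KO and 0 in every WT library.

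Regulators of pluripotency and development gave 0 calls of 7. Zfp42, the pluripotency marker Rex1, had 12.7, 0.909 and 3.28 normalised counts in KO, against 11.4, 14.9, 8.41 and 11.9 in WT. KO 1 lay within the WT range and the other KO libraries below it (log2 fold change -1.37, limma adjusted p = 0.154). Without KO 1 it was called lower (-2.12, limma adjusted p = 0.0197). Zfp217, a transcriptional regulator, had 85.4, 65.5 and 85.3 in KO, against 47.7, 52.2, 59.8 and 39.0 in WT. The groups did not overlap, but the test was not passed (0.66, limma adjusted p = 0.103). The others, Zfp281, Zfp148, Zfp423, Zfp521 and Zfp410, lay between -0.44 and 0.30. Of 6 genes for RNA, ribosome or spindle proteins, none was called. The most abundant, Zfp207, codes for BuGZ, which binds BUB3 at kinetochores, and had 1552, 1306 and 1320.4 in KO, against 1369, 1246, 1212 and 982 in WT (0.22, limma adjusted p = 0.380). The splicing factor gene Zfp326, the RNA-binding genes Zfp638 and Zfp106, and the ribosome biogenesis genes Zfp622 and Zfp593 had limma adjusted p between 0.346 and 0.959. The ubiquitin ligase gene Zfp91 and the SUMO ligase gene Zfp451 were not called (limma adjusted p = 0.861 and 0.564). Of the 3 tested members with the most finger motifs, Zfp142 had 36 and was at 67.5 ± 12.98 in KO (SD, n = 3) and 58.7 ± 8.83 in WT (SD, n = 4), and neither it nor Zfp236 and Zfp423 was called.

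The partners through which KRAB proteins act were read from a list of 32 genes, all tested. There were 3 called higher in KO (3.09% of all tested genes) and 1 called lower (3.63%). Atrx, a chromatin remodeller that deposits histone H3.3, had 3260, 3974 and 4660.3 normalised counts in KO, against 2965, 2930.1, 2537 and 2868 in WT. Its log2 fold change was 0.48 (limma adjusted p = 0.0318, lost without any 1 library other than KO 1, up to 0.106). Morc3, an ATPase that binds methylated H3K4, had 552, 503 and 581 in KO, against 422, 339.8, 331 and 373 in WT (0.58, limma adjusted p = 0.0232, lost without KO 3, WT 2 or WT 3, up to 0.0791). Smarcad1, a remodeller linked to heterochromatin, had 245, 254 and 327 in KO, against 179, 164, 179 and 172 in WT (0.65, limma adjusted p = 0.0249, lost without KO 3, WT 1, WT 2 or WT 3, up to 0.0934). Dnmt3l, the cofactor of de novo DNA methylation in oocytes, had 549, 287 and 307 in KO, against 687, 571, 598 and 763 in WT (-0.83, limma adjusted p = 0.0173, lost without KO 2, KO 3 or WT 4, up to 0.0916). Trim28 itself had 509, 370.0 and 348 in KO, against 452, 473, 496 and 449.5 in WT (limma adjusted p = 0.461). Setdb1 had 619, 543 and 679 in KO, against 559.6, 637, 686 and 523 in WT (limma adjusted p = 0.933). In both, the groups overlapped.

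A KRAB-like stretch was found in the coding sequence of 96 members and not in 95. With the stretch, 16 of 93 tested members (17.2%) were called higher, 74 had a positive log2 fold change, and the median was 0.43. Without it, 11 of 86 (12.8%) were called, 56 were positive, and the median was 0.18. Of all tested genes 3.09% were called higher and 49.2% were positive, with a median of -0.01. The number of finger motifs ran from 0 (10 members) to 36, with a median of 9. With 0 to 4 motifs 1 of 36 tested members (2.78%) was called higher, at a median of 0.07. With 5 to 9 it was 13 of 57 (22.8%, median 0.41). With 10 to 14 it was 8 of 62 (12.9%, 0.32), and with 15 or more 5 of 24 (20.8%, 0.25). The level differed between these bins as well, with a median of the mean normalised count of 156 for members with 0 to 4 motifs and 44.1 for those with 10 to 14. Members were also sorted by shared sequence. Of members with under 1% of their 75-base stretches in other genes, 15 of 99 were called (15.2%, median 0.30). The calls were 5 of 47 from 1% to under 20% (10.6%, 0.19) and 7 of 33 from 20% up (21.2%, 0.46).

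**Figure D4:**
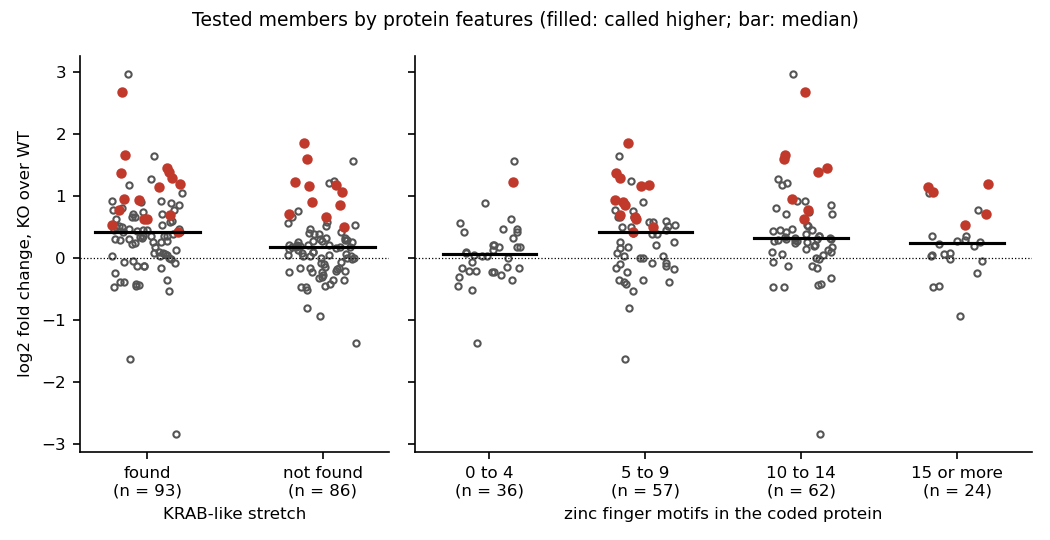
Log2 fold change of KO over WT (vertical axis) for each tested member, by presence of a KRAB-like stretch (left) and by number of zinc finger motifs (right). Filled points are called higher and bars are medians, which are 0.43 with and 0.18 without the stretch, and lowest (0.07) for 0 to 4 motifs.

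Neighbouring members, with starts within 500 kb of the next, formed 17 neighbourhoods of at least 3 genes. They held 83 members, of which 14 of 79 tested were called higher (17.7%, median log2 fold change 0.43, 64 positive). Outside them it was 13 of 100 (13%, median 0.18, 66 positive), beside 3.09% of all tested genes. On chromosome 8 between 69209038 and 69791179 (GRCm38), all 6 members had positive log2 fold changes, and Zfp930 and Zfp964 were called. Zfp964 had 304, 231 and 337 normalised counts in KO, against 162, 194, 151 and 208 in WT (0.69, limma adjusted p = 0.0263, lost without KO 1, KO 3, WT 1 or WT 3, up to 0.0931). On chromosome 2 from 177464733 to 178078477, all 4 were positive, with Zfp970 and Zfp931 called. Zfp931 had 427, 431 and 714 in KO, against 297, 321, 393 and 302 in WT (0.64, limma adjusted p = 0.0374, lost without KO 3, WT 1, WT 2 or WT 4, up to 0.174). On chromosome 6 from 47819266 to 48623228, 0 of 8 tested members were called and 3 were positive. Single calls lay in neighbourhoods on chromosomes 5 (Zfp68), 8 (Zfp617), 2 (Zfp966), 9 (Zfp872 and, in another, Zfp426), 10 (Zfp433), 16 (Zfp263) and 18 (Zfp35). Zfp35 had 195, 208 and 200.2 in KO, against 117, 126, 132 and 117 in WT (0.71, limma adjusted p = 0.0188, lost without KO 2 or WT 1, up to 0.0627). Zfp426 had 124, 143 and 148 in KO, against 86.8, 73.5, 79.4 and 80.2 in WT (0.78, limma adjusted p = 0.0216, lost without KO 2, KO 3, WT 2 or WT 3, up to 0.0714). Zfp263 had 93.6, 106 and 116 in KO, against 42.9, 58.6, 59.8 and 71.5 in WT (0.86, limma adjusted p = 0.0278, lost without KO 2, KO 3, WT 1, WT 2 or WT 3, up to 0.0892). Zfp433 was the called gene with overlapping groups, with 648, 925 and 913 in KO and 687, 576, 485 and 536 in WT (0.53, limma adjusted p = 0.0481, lost without KO 2, KO 3, WT 2, WT 3 or WT 4, up to 0.175). Other genes share 80.5% of its stretches, Gm32687 most of all, and it overlaps Gm47529 and Gm8249, so its counts are uncertain.

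**Figure D5:**
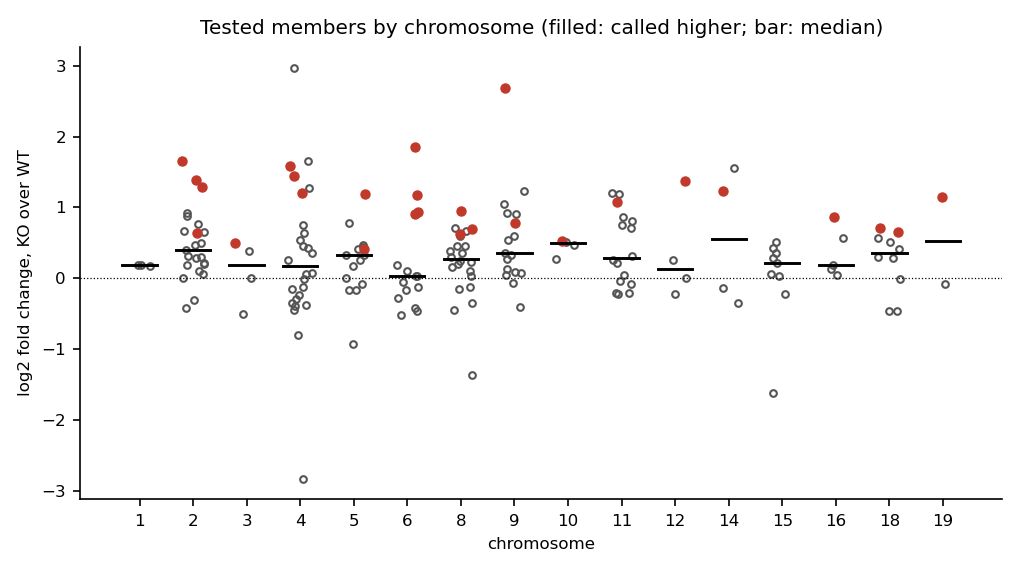
Log2 fold change of KO over WT (vertical axis) for the 179 tested members by chromosome (horizontal axis), with called members filled and the chromosome median as a bar. Called members lie on 14 of the 16 chromosomes, and chromosome 4 holds both the highest and the lowest point, 2.98 for Zfp990 and -2.83 for Zfp987, neither of them called.

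The largest neighbourhood lies beside the gene named in the title. Its 18 members span 145510759 to 147848367 on chromosome 4. The last, Zfp933, lies 25.2 kb from the nearer edge of Mfn2, at 147873599. Mfn2 is on the minus strand, so that edge is its 3′ end. Zfp600 and Zfp991 were called there, 11 of 18 were positive, and other genes share a median of 53.9% of the members' stretches. The WT libraries spread widely. The SD of log2(value + 1) over WT 1 to 4 had a median of 0.79 in these 18 genes and 0.27 in the other 161 tested members. In 12 of the 18 it was at or above the 90th percentile of all tested genes in the same range of levels, as it was in 15 of the other 161. The following genes were chosen after their values were seen. Zfp990 had 751, 898 and 1076 normalised counts in KO, against 6.67, 137, 335 and 479.8 in WT. KO lay above every WT library, but WT 1 was far below WT 4, and the gene was not called (log2 fold change 2.98, SE 1.57, limma adjusted p = 0.355). Zfp933 had 698, 640.0 and 830.3 in KO, against 132, 225, 381 and 681 in WT (1.28, limma adjusted p = 0.288). Again WT 1 was the lowest and WT 4, within the KO range, the highest. Without WT 4 Zfp933 was called higher (1.67, limma adjusted p = 0.0339).

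Zfp987 went the other way, with 9.08, 2.73 and 18.6 in KO, against 199, 86.3, 73.8 and 11.9 in WT (log2 fold change -2.83, limma adjusted p = 0.206). There WT 1 was the highest and WT 4, within the KO range, the lowest. DESeq2 called it lower, as did limma without WT 4 (-3.60, adjusted p = 0.0100). Other genes share 81.7% of its stretches. Zfp979 had 584, 520.0 and 888 in KO, against 1451, 1048, 953 and 425 in WT (-0.45, limma adjusted p = 0.640), and Zfp534 had 99.9, 114 and 135 in KO, against 256, 163, 141 and 57.4 in WT (-0.24, limma adjusted p = 0.818). In both, WT 1 was again the highest and WT 4 the lowest library, and without WT 4 Zfp979 was called lower (-0.81, limma adjusted p = 0.0336). The part of nearness to Mfn2 and of shared sequence in these values was not tested. Without this neighbourhood 25 of 161 tested members were called higher (15.5%, beside 3.09% of all tested genes), and the median log2 fold change was 0.28.

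The stretch before the start site is shown for 3 of the genes whose calls held with any library left out and whose RefSeq start (GRCm38.p6) is that of the row, since the promoter is where members that move together could share letters. Each line is the 150 bases before the start, 5′ to 3′ on the gene's strand. Capitals mark the CCAAT box, the GC box spelt GGGCGG and the ETS-type motif spelt CCGGAAG, each on either strand, where matches can overlap.
Zfp386 (chr12:116047574-116047723, plus strand): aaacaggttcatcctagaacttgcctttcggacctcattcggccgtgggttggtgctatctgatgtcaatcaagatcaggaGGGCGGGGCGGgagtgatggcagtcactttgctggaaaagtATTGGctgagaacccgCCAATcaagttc
Zfp62 (chr11:49203142-49203291, plus strand): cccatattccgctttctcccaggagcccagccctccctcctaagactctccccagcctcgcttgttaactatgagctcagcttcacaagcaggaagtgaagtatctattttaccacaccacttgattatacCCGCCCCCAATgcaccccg
Zfp950 (chr19:61140841-61140990, minus strand): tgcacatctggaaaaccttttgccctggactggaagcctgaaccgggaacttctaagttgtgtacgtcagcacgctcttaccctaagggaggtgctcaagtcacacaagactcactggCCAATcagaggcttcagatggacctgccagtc
The CCAAT box occurred in each of the 3, the GC box in Zfp386 and Zfp62, and the ETS-type motif in none of these windows. Promoter windows of 300 bases, 250 before to 50 after the start, could be matched for 141 of the 179 tested members. In 116 of them the start site lay within 100 bases of the row's 5′ end. The member counts below use all 141, so some windows may not be the promoter of the measured row. CCAAT on either strand was in 13 of 21 called members (61.9%) and 61 of 120 other tested members (50.8%), beside 39.1% of 11082 tested protein-coding genes. TATAAA was in 0 of 21 and 5 of 120, beside 7.94%. GGGCGG was in 11 of 21 (52.4%) and 60 of 120 (50%), beside 60.3%. CCGGAAG was in 6 of 21 (28.6%) and 29 of 120 (24.2%), beside 16.99%. AAGATGGCG was in 3 of 21 (14.3%) and 4 of 120 (3.33%), beside 2.92%. The NRF1 motif was in 1 of 21 (4.76%) and 12 of 120 (10%), beside 9.84%. A match says only that these letters are in the window.

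Zfp genes elsewhere were set beside these. On chromosome 7, 14 of 80 tested Zfp genes were called higher and 0 lower, with a median log2 fold change of 0.18 and 51 positive. On chromosomes 13 and 17, 11 of 62 were called higher and 0 lower, with a median of 0.51 and 52 positive. The share of tested genes called higher was 15.1% for the members, 17.5% on chromosome 7 and 17.7% on chromosomes 13 and 17. Whether these shares differ was not tested. The 3 sets were measured in the same libraries. Of all tested protein-coding genes, 554 of 14290 were called higher and 498 lower, with a median of 0.03.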

How the data were processed

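RNA was measured by Smart-Seq2, full-length cDNA amplification, in 7 libraries of 5 mouse oocytes, made with Nextera XT, which does not mark strand, and sequenced as 75-base read pairs, per the labels' protocols. The authors deposited 1 signal value per gene and library for 26019 rows. Each is a gene's count over its library's size factor: at least 99.96% of values in each library became whole reads within 0.05 after multiplication by a factor between 0.914 and 1.10, giving 6676076 to 8343915 reads. STAR, cutadapt, FastQC, DESeq2 and DESeq are named in the submitters' processing notes, with GRCm38 (mm10) as the build. The counter and its handling of reads that match several genes are not stated in any source used here.

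Genes reaching a value of 1 in 3 or more libraries were tested by limma 3.58.1 (intensity trend, robust variances, R 4.3.3) on log2(value + 1), with Benjamini-Hochberg adjustment over 19227 genes and a threshold of 0.05. Fold changes on this scale understate those of low genes. On recovered reads, edgeR 4.0.16 called 1334 genes and DESeq2 1.42.0 called 1474, beside 1291 by limma. Groups and replicate numbers came from library titles. Libraries with the same number did not deviate together, so the numbers were not used as pairs. No 2 libraries of a group were alike within sampling noise. The limma step was tested on simulated data.

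The members, the gene lists and the tests were chosen with earlier results of these data known. Members named are the 12 separated called genes with the largest fold changes among those averaging at least 10 in the higher group (no called gene was lower), the 6 most abundant, those with a well-known function, the 3 with most fingers and the called ones in neighbourhoods. Others named are marked as chosen after their values were seen or given to complete the list of calls. Finger motifs (cysteine and histidine spacing) and a KRAB-like stretch were searched in coding sequences of GENCODE M21 translated here, in place of the planned RefSeq proteins, and all 191 members matched that annotation, 182 of them by symbol and start. Shared stretches are 75-base words of a member's transcripts found in another gene. A total of 87 members, 16 of them called, overlap another gene. Alternatives were other pseudocounts, filters, scalings and tools, a replicate block, left-out libraries and a granulosa covariate.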

Additional observations from a re-analysis of the deposited data

Results flagged for a closer look

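Among the 50 groups of WT values checked, 4 had 1 library far from the other WT libraries, and chance flags about 1 in 20. Zfp142 was at 45.492 normalised counts in its lowest WT library, WT 4, and at 62.6 to 63.9 in the other WT libraries. Zfp395 was at 12.998 in its highest WT library, WT 4, and at 9.35 to 9.59 in the others. Zfp638 was at 490.66 in its lowest WT library, WT 4, and at 530.4 to 536 in the others. Zfp958 was at 1446.2 in its highest WT library, WT 1, and at 1146 to 1194 in the others.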

How the results depend on the processing

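Of the alternatives to the 27 members called higher, 0 lower and 1291 genes in all (594 higher, 697 lower), the pseudocounts, filters, TMM scaling and scaling to the library total gave between 20 and 31 members higher and 0 lower, and edgeR gave 29 and 0. DESeq2 gave 30 higher and 1 lower. Without an intensity trend 1 member, Zfp644, was higher, of 97 genes (31 higher, 66 lower). With KO 2 and KO 3 left out 0 were higher, of 130 genes (8 and 122), and with granulosa markers as a covariate 0, of 3 genes (0 and 3). The first has 1 KO library, assumed to vary like the WT libraries, and the second 1 more term. With 1 library left out, members higher ran from 11 to 25, members lower from 0 to 2, and all genes from 604 to 1772 (higher 228 to 822, lower 332 to 950). The replicate numbers do not pair the libraries (correlations of same-numbered libraries -0.12, 0.026 and 0.022). With the replicate block, WT 4 left out, 20 members were higher, 2 lower and 1020 genes called (465 higher, 555 lower). The same fit without the block, added after seeing the data, gave 18, 2 and 922.

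Among the members named by rule, the sign changed in 11, all uncalled. With KO 2 and KO 3 left out the log2 fold change was 0.14 for Zfp42, 0.0298 for Zfp423, 0.28 for Zfp687, 0.15 for Zfp91 and -0.18 for Zfp932. With the granulosa covariate it was -0.027 for Zfp345, -0.14 for Zfp410, 0.35 for Zfp42, 0.17 for Zfp423, -0.13 for Zfp521, 0.021 for Zfp593, 0.28 for Zfp687, 0.23 for Zfp91 and -0.037 for Zfp932. Zfp655 was at -0.0152 with library total scaling and at -0.0095 both with the replicate block and in the same fit without it, and Zfp687 at 0.0013 with TMM scaling. With 1 library left out, values ran from -0.0376 to 0.2216 for Zfp345, from -0.0107 to 0.6145 for Zfp521, from -0.1094 to 0.2893 for Zfp622, from -0.055 to 0.1129 for Zfp655, from -0.2852 to 0.1857 for Zfp687 and from -0.1987 to 0.1432 for Zfp91.

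Of 27 tested members averaging under 10 normalised counts, 1 was called higher (3.70%, beside 1.07% of all tested genes at that level). It was Zfp872, which passed the filter through its KO libraries. Whether depth sets this share was not tested.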
